A study of Mus musculus with 18 samples.

Results

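The genes described here encode the parts of the contractile machinery of a cell: actins, myosin chains, tropomyosins, calponins, and proteins that anchor or bundle actin. They are 37 genes chosen by name, of 21647 genes counted, and 35 of them had enough reads to test. Each was assigned by its textbook expression to a muscle class of 17 genes, typical of smooth or striated muscle, or to a general class of 20 genes, whose products serve most cells. Some genes of the muscle class, such as Tpm1, are also used in other cells. Counts are per gene, so the muscle form and other forms of such a gene were not separated. Muscle genes Actc1 and Myh11 did not pass the filter on low counts, which left 15 muscle and 20 general genes.

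Poly(A) RNA was sequenced from cultured cells that the labels call embryonic aortic endothelial cells. Cells were Tg737orpk/orpk (orpk hereafter), which carry an insertion mutation in Ift88, a gene needed to build the primary cilium, or wild type (WT). Each genotype was kept static, or put under laminar shear of 2 or 30 dyn/cm2 for 48 h of flow. Both genotypes were grown on gelatin and serum-starved for 24 h before flow. The 6 groups were orpk static, orpk at 2, orpk at 30, WT static, WT at 2 and WT at 30 dyn/cm2, with 3 libraries each. The labels name no animals or isolations, so how many of either stand behind a group is unknown, and p-values measure the spread between libraries, which may be technical. The libraries held 13626480 to 17387553 counts, and genotype lay along the first principal component, which took 90.1% of the variance. Ift88 ranged from 6.37 to 8.46 CPM (counts scaled to a common library size) in orpk libraries, against 12.8 to 17.4 CPM in WT libraries. Replicate 2 of orpk and replicate 1 of WT, both at 2 dyn/cm2, stood apart from the other libraries of their groups. In a chi-square comparison of counts, that orpk library differed from its partners by 3.39 and 3.79 per degree of freedom, against 1.58 between those partners, and that WT library by 6.35 and 7.74, against 1.44.

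Most endothelial markers were at or near 0 in both genotypes, and at each shear more of them had 0 reads in WT than in orpk. Among 15 endothelial marker genes, Cdh5, Erg and Tie1 had 0 reads in every WT group, and Kdr, Robo4, Emcn and Cldn5 had 0 reads in static and 30 dyn/cm2 WT cells. Summed over the list, orpk libraries held 93.8 to 149.6 CPM and WT libraries 27.6 to 54.8 CPM, with Flt1 the largest part of it. Pecam1, Egfl7 and, near the floor, Mmrn2 went the other way and averaged higher in WT at each shear. In static cells Pecam1 averaged 1.27 CPM in WT and 0.414 CPM in orpk, and Egfl7 10.9 and 4.25 CPM. The 10 fibroblast genes, collagens among them, summed to 21270.1 to 33889.4 CPM in orpk libraries and 711.5 to 1154.7 CPM in WT libraries. The 9 mural cell genes outside the members summed to 862.6 to 1657.7 CPM in orpk libraries and 4.67 to 9.17 CPM in WT libraries. Most of that sum came from Cspg4, Pdgfrb and Notch3, while Rgs5, Kcnj8, Abcc9, Higd1b and Myocd, more specific to pericytes or smooth muscle, averaged at most 0.349 CPM in any group. In 28 striated muscle genes the sum was 14.2 to 22.6 CPM in orpk libraries and 8.05 to 13.4 CPM in WT libraries. The 7 leukocyte genes summed to 8.76 to 18.2 CPM in orpk libraries and 11.8 to 50.1 CPM in WT libraries. Most of the WT sum was Csf1r, at 44.3 CPM on average in static WT cells. Cd68 and Lyz2 were higher in orpk, at 8.72 and 3.27 CPM in static cells, against 2.65 and 0.0575 CPM in WT. Ptprc, Adgre1, Cd52 and Tyrobp were at or near 0 in both. The 9 epithelial and mesothelial genes summed to 158.3 to 302.2 CPM in orpk libraries and 351.6 to 571.1 CPM in WT libraries. Within that last list the genes were opposed as well. The keratins Krt8 and Krt18 averaged 0.332 and 0.162 CPM in static orpk cells, against 149 and 151 CPM in static WT cells. The mesothelial gene Msln averaged 198 CPM in static orpk and 94.6 CPM in static WT cells. At 2 and 30 dyn/cm2 the genotypes differed in the same directions for Krt8, Krt18 and Msln. Krt19 averaged 96.9 CPM in orpk and 162 CPM in WT in static cells, but 53.5 and 17.9 CPM at 2 dyn/cm2. It was not called between the genotypes at 30 dyn/cm2. Of the other mesothelial genes in static cells, Upk3b was lower in orpk (0.143 against 2.92 CPM). Wt1 and Lrrn4 were higher (1.85 and 1.43 CPM, against 0.149 and 0 CPM). The part of other cell types in the results was not tested, and in bulk RNA a smaller share of cells of a type and less RNA per cell cannot be told apart.

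Contraction rests on myosin heads that pull on actin filaments. In smooth muscle and in non-muscle cells this is switched on when myosin light chain kinase phosphorylates the regulatory light chain, and switched off by myosin phosphatase. Tropomyosin, caldesmon and calponin lie along the actin filament and limit its access to myosin, while vinculin, zyxin and alpha-actinin tie filaments to adhesion sites. Many of the genes are targets of serum response factor, which binds a short DNA element called the CArG box. Some of its cofactors of the myocardin family are held back by free actin monomers. Endothelial cells normally use the general isoforms for stress fibres, which align under flow.

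The CArG box is shown first because it is the promoter element that these genes are best known to share. Windows of 250 bases before to 50 bases after the gene start were taken from RefSeq on GRCm38.p6 for 33 of the 37 members; Actb, Actg2, Tagln and Myh11 had none. An exact CArG box on either strand was present in 8 of the 33 genes (24.2%), namely 3 of 14 muscle genes and 5 of 19 general genes. Over all 27025 genes with a window, 488 (1.81%) held one. The boxes began at -47 in Actc1, -161 in Myl9, -73 in Acta1, -56 in Cnn2, -50 in Myl6, -90 in Actg1, -227 in Vcl and -82 and -62 in Srf, counted in bases from the gene start. A match describes the letters only, and the letters of other windows were not examined for inexact boxes. The windows of a muscle actin (Acta1, chr8:123894726-123895025, minus strand), a muscle myosin light chain (Myl9, chr2:156775214-156775513, plus strand), the factor's own gene (Srf, chr17:46556113-46556412, minus strand) and an adhesion gene (Vcl, chr14:20929148-20929447, plus strand) follow, 5′ to 3′ with the box in capitals.
Acta1: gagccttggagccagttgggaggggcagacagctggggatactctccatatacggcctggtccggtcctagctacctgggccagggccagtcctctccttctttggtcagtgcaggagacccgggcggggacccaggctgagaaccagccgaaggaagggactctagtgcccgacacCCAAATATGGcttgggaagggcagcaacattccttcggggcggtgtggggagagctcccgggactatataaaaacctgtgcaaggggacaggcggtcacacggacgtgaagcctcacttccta
Myl9: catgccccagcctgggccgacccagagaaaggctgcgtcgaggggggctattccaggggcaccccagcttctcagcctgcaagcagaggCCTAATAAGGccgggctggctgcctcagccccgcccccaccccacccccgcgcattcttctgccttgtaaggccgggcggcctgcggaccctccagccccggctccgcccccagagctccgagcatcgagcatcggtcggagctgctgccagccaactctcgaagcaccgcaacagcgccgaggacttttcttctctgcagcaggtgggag
Srf: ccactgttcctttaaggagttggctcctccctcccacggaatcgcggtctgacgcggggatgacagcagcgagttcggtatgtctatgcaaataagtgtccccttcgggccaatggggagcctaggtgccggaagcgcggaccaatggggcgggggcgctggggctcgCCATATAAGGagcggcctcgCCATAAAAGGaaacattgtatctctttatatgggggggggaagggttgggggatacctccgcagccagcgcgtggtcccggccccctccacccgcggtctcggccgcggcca
Vcl: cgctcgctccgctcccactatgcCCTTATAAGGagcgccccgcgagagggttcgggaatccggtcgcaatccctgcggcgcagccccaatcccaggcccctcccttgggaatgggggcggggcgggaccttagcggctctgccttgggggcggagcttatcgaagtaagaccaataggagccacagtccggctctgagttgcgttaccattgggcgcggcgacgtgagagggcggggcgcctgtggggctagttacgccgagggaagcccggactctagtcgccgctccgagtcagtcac

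Across the 35 tested genes, flow raised most contractile genes in orpk cells, whereas in WT cells 2 dyn/cm2 lowered 20 of them and 30 dyn/cm2 gave a mixed picture. A call means an adjusted p under 0.05 in edgeR's quasi-likelihood test with Benjamini-Hochberg adjustment over all 13058 genes tested. In orpk at 2 dyn/cm2 against static, 30 genes were higher and 2 lower, against 30.9% and 31.1% of all tested genes. At 30 dyn/cm2 against static, 28 were higher and 5 lower in orpk, against 36.5% and 33.3% of all genes. In WT, 5 were higher and 20 lower at 2 dyn/cm2 (background 32.6% and 30.3%), and 12 were higher and 12 lower at 30 dyn/cm2 (background 34.1% and 32.7%). The WT count at 30 dyn/cm2, 34.3% of the members in each direction, is near its background. Library totals in place of TMM scaling gave 6 higher and 11 lower in WT at 2 dyn/cm2, where they shift the median of all genes by 0.11 on the log2 scale. Without WT replicate 1 at 2 dyn/cm2 those counts were 5 higher and 22 lower, and without orpk replicate 2 at 2 dyn/cm2 the orpk counts at that shear were 30 higher and 2 lower.

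Markers of other cell types also moved with shear in orpk, in both directions. Of the 10 fibroblast genes, 1 was higher and 8 lower at 2 dyn/cm2 over static, and 3 were higher and 6 lower at 30 dyn/cm2 over static. At 30 dyn/cm2, Pdgfra averaged 149 CPM, against 1775 CPM in static orpk cells, and Lum 4.86 CPM, against 44.01 CPM, while the matrix gene Postn averaged 2459 CPM, against 1020.3 CPM. Of the 4 mural genes that passed the filter, Cspg4 was 7.22-fold higher and Notch3 7.90-fold lower at 30 dyn/cm2 over static in orpk. Summed, the mural list held 862.6 to 874 CPM at 2 and 1553 to 1658 CPM at 30 dyn/cm2, against 1089 to 1124 CPM in static orpk libraries, and the fibroblast list 21270.1 to 24830.0 CPM at 2 and 28979 to 30696 CPM at 30 dyn/cm2, against 32879 to 33889.4 CPM. In WT at 30 dyn/cm2 over static, 2 fibroblast genes were higher and 1 lower. These markers were singled out after their values were seen, and their part in the members' response was not tested.

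The median log2 change of the 35 genes was 0.36 in orpk at 2 dyn/cm2 and 0.56 at 30 dyn/cm2, where the median of all genes was -0.00 and 0.02. In WT it was -0.17 at 2 dyn/cm2 and -0.01 at 30 dyn/cm2, where that of all genes was 0.01 and 0.00. Split by class, 13 of 15 muscle genes and 17 of 20 general genes were higher in orpk at 2 dyn/cm2, and 10 and 18 at 30 dyn/cm2. The corresponding WT counts of higher genes were 3 and 2 at 2 dyn/cm2, and 3 and 9 at 30 dyn/cm2. Between the sheared groups, 30 against 2 dyn/cm2, 24 members were higher and 6 lower in orpk (background 32.1% and 31.5%), and 18 were higher and 3 lower in WT (background 15.9% and 17.2%). With library totals as the scaling the orpk split was 18 higher and 9 lower.

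**Figure D1:**
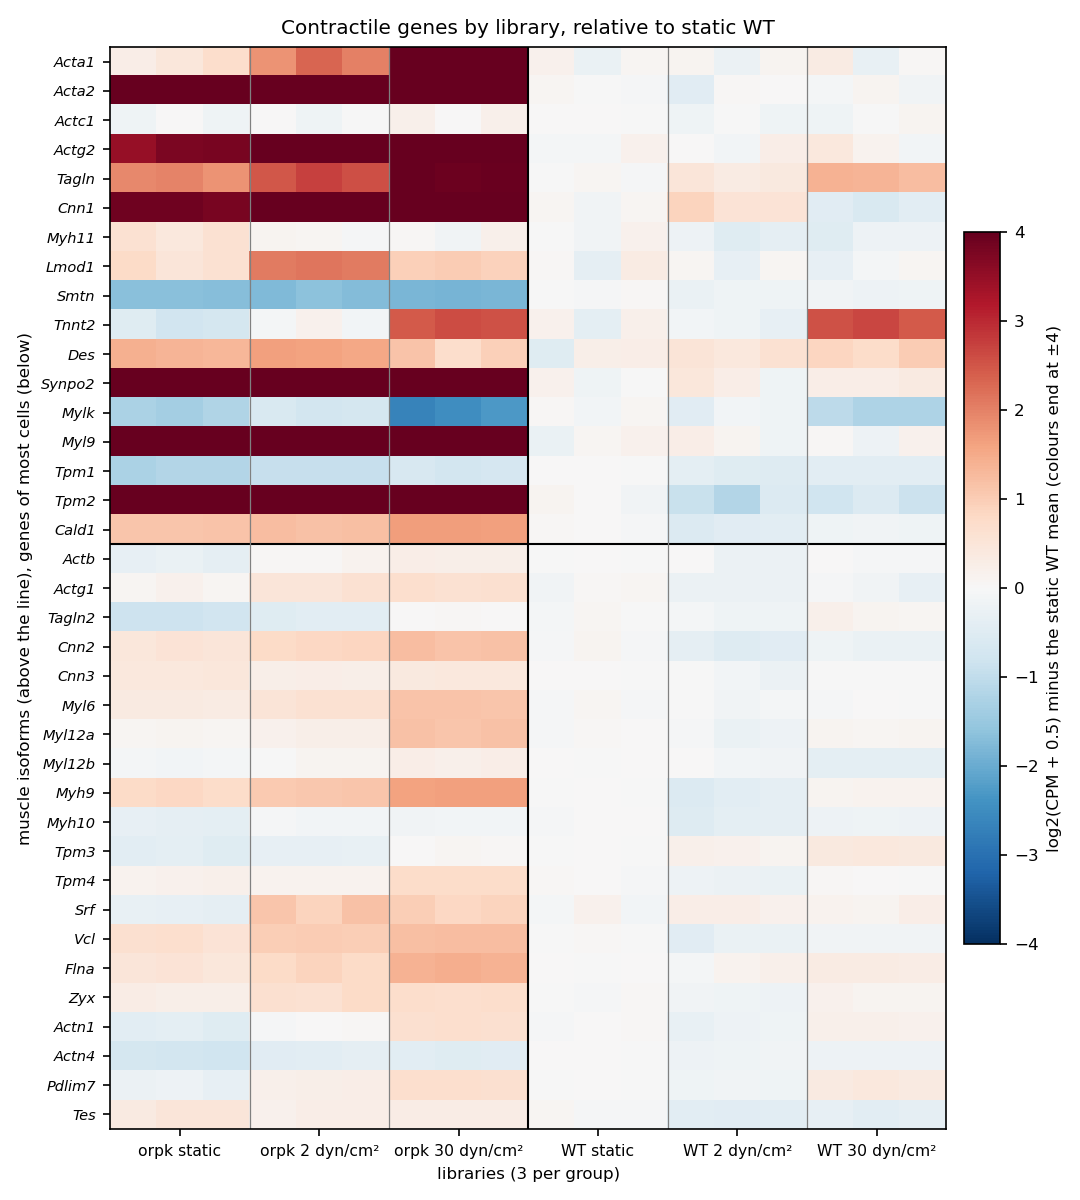
Each row is a member gene and each column a library, in 6 groups of 3, and the colour is log2(CPM + 0.5) minus the mean of the 3 static WT libraries, with colours ending at ±4. The muscle genes above the line hold the strongest colours, red in all 9 orpk libraries for Acta2, Cnn1, Synpo2, Myl9 and Tpm2, while the general genes below it vary within a narrow range.

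Of the tested members, Acta2 was the one in which the genotypes stood farthest apart at each shear. Acta2, smooth muscle alpha-actin (chr19:34241090-34255590, minus strand), held 666, 696 and 615 CPM in static orpk libraries, 1021, 1205 and 1085 CPM at 2 dyn/cm2 and 2082, 1970.05 and 1969.9 CPM at 30 dyn/cm2. WT libraries held Acta2 at 0.849, 0.7697 and 0.747 CPM in static culture, 0.435, 0.841 and 0.814 CPM at 2 and 0.719, 0.888 and 0.662 CPM at 30 dyn/cm2. Every orpk library lay above every WT library, and in orpk the 3 shear groups did not overlap and followed the order of shear. Acta2 was 829-fold higher in orpk than in WT when static, 1577-fold at 2 and 2625-fold at 30 dyn/cm2 (edgeR adjusted p = 2.84e-32, 1.83e-33 and 2.16e-34), where WT rested on 37, 37 and 40 reads over 3 libraries. Within orpk the log2 change at 30 dyn/cm2 against static was 1.61 ± 0.05 (SE), and within WT it was -0.06 ± 0.37, short of the threshold (edgeR adjusted p = 3.84e-21 and 0.923).

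Acta1, the actin of skeletal muscle (chr8:123891769-123894751, minus strand), showed the steepest response to flow among the members. Acta1 held 0.713, 0.904 and 1.17 CPM in static orpk libraries, 3.04, 4.57 and 3.65 CPM at 2 dyn/cm2 and 23.3, 21.01 and 20.2 CPM at 30 dyn/cm2. WT libraries held Acta1 at 0.653, 0.3499 and 0.575 CPM in static culture, 0.598, 0.3604 and 0.597 CPM at 2 and 0.779, 0.333 and 0.551 CPM at 30 dyn/cm2. In orpk the groups were separate at each step of shear, and in WT they overlapped throughout. Acta1 rose 4.05-fold at 2 and 23.0-fold at 30 dyn/cm2 over static in orpk (edgeR adjusted p = 8.05e-10 and 6.53e-26), while the WT log2 change at 30 dyn/cm2 was 0.05 ± 0.40 (SE, edgeR adjusted p = 0.948). In static cells the genotypes differed in Acta1 by 0.79 ± 0.37 on the log2 scale (edgeR adjusted p = 0.045). That call was lost without orpk static replicate 2 or 3, or WT static replicate 2 or 3 (0.59 to 0.86, adjusted p = 0.0639 to 0.179 by edgeR), with the replicate block (0.79) and with library totals (0.58).

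Actg2, the gamma-actin of visceral smooth muscle (chr6:83512905-83536265, minus strand), followed Acta2 at a lower level. Actg2 held 6.28, 7.69 and 7.91 CPM in static orpk libraries, 15.3, 17.3 and 18.01 CPM at 2 and 21.3, 20.01 and 17.7 CPM at 30 dyn/cm2. The WT groups rested on 5, 7 and 9 reads over 3 libraries in static culture and at 2 and 30 dyn/cm2, at most 0.30 CPM in a library, so a change within WT was not detectable at this depth. In orpk, Actg2 rose by 1.21 ± 0.11 (SE) at 2 and 1.43 ± 0.11 at 30 dyn/cm2 over static on the log2 scale (edgeR adjusted p = 5.1e-13 and 1.88e-15). Actc1, the cardiac actin (chr2:114047282-114053548, minus strand), stayed near the counting floor, with 1, 2 and 5 reads over the orpk groups and 3, 1 and 3 over the WT groups in order of shear. The ratio of orpk at 30 dyn/cm2 to orpk static, 5 reads to 1, was 5.36 with a 95% exact counting interval of 0.60 to 253.6.

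Per kilobase of exon, which allows genes to be set side by side, the muscle actins made up a large part of the actin messages in orpk and almost none in WT. The 4 muscle actins took 28.7% ± 0.526 of the summed CPM per kilobase of 6 actins in static orpk libraries, 34.1% ± 2.08 at 2 and 45.9% ± 0.568 at 30 dyn/cm2 (SD, n = 3 each). In WT they took 0.0858% ± 0.0141, 0.0895% ± 0.0219 and 0.0918% ± 0.0144 in the same order. Acta2 alone was 44.6% ± 0.504 of actin in orpk at 30 dyn/cm2 and Acta1 0.682% ± 0.0376, with Actb at 53.7% ± 0.566, against 99.4% ± 0.0529 Actb in WT. In orpk the share was higher at each step of shear, and the libraries of the 3 groups did not overlap. Gene length by longest transcript lowered the orpk shares to 23.7%, 28.6% and 39.7% with their order kept. The level of Actg1 is uncertain, because 37.4% of its 50-base words also occur in other genes. Actg1 is part of the sum behind every share. If its reads were undercounted, the shares of the muscle actins and of Actb given here are too high.

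**Figure D2:**
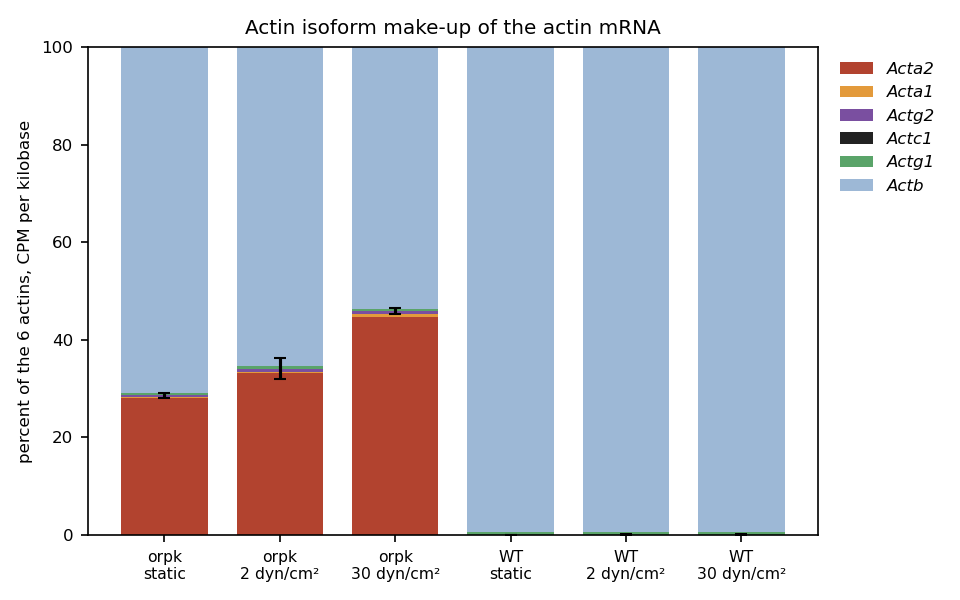
Stacked bars give the mean percent of each actin in the summed CPM per kilobase of the 6 actins in each group of 3 libraries, and error bars are the SD of the 4 muscle actins together. Acta2 takes up 28.2%, 33.2% and 44.6% of the bar in orpk at static, 2 and 30 dyn/cm2, and the WT bars are almost wholly Actb.

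Transgelin and calponin, actin-binding proteins typical of smooth muscle, were higher in orpk at each shear. Tagln, or SM22-alpha (chr9:45929619-45936058, minus strand), held 179, 183 and 164 CPM in static orpk libraries, 261, 309 and 277 CPM at 2 and 787, 704 and 719 CPM at 30 dyn/cm2. WT libraries held Tagln at 45.8, 48.5 and 45.1 CPM in static culture, 65.7, 58.4 and 61.3 CPM at 2 and 123, 120.1 and 109.6 CPM at 30 dyn/cm2. Tagln was the one muscle gene called higher at both shears in both genotypes, with no overlap between the groups in order of shear. Its log2 change at 30 dyn/cm2 over static was 2.07 ± 0.06 (SE) in orpk and 1.34 ± 0.07 in WT (edgeR adjusted p = 1.71e-17 and 8.95e-13). Tagln overlaps Pcsk7 on the other strand and shares 58.4% of its 50-base words with other annotated genes, so its level is less certain.

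Cnn1, calponin 1 (chr9:22099216-22109630, plus strand), moved in opposite directions at 30 dyn/cm2. Cnn1 held 29.2, 29.5 and 27.4 CPM in static orpk libraries, 38.6, 44.6 and 40.8 CPM at 2 and 56.8, 49.4 and 55.96 CPM at 30 dyn/cm2. WT libraries held Cnn1 at 1.63, 1.33 and 1.61 CPM in static culture, 3.26, 2.46 and 2.44 CPM at 2 and 0.959, 0.832 and 0.992 CPM at 30 dyn/cm2. In orpk the order followed shear, whereas in WT the 2 dyn/cm2 libraries were the highest and the 30 dyn/cm2 libraries the lowest, without overlap. The log2 change of 30 against 2 dyn/cm2 was 0.38 ± 0.06 (SE) in orpk and -1.55 ± 0.22 in WT (edgeR adjusted p = 4.55e-07 and 3.66e-07), and the test of that difference gave 1.93 ± 0.23 (edgeR adjusted p = 3.09e-09). Against static, the 30 dyn/cm2 change in WT was -0.72 ± 0.26 (SE, edgeR adjusted p = 0.0155) and was no longer called without WT static replicate 3 or WT replicate 2 at 30 dyn/cm2 (-0.68 to -0.64, adjusted p = 0.0515 to 0.055, edgeR).

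Among the myosin genes, the smooth muscle regulatory light chain Myl9 (chr2:156775420-156781658, plus strand) rose in orpk. Myl9 held 138, 134 and 125 CPM in static orpk libraries, 259.9, 303 and 270.1 CPM at 2 and 326, 304 and 311 CPM at 30 dyn/cm2. WT libraries held Myl9 at 1.57, 2.099 and 2.299 CPM in static culture, 2.499, 2.16 and 1.68 CPM at 2 and 2.04, 1.66 and 2.26 CPM at 30 dyn/cm2. The WT groups overlapped, and static orpk libraries lay apart from both sheared orpk groups. The log2 change over static was 1.07 ± 0.05 (SE) at 2 and 1.24 ± 0.05 at 30 dyn/cm2 in orpk and -0.01 ± 0.23 at 30 dyn/cm2 in WT (edgeR adjusted p = 1.36e-19, 8.27e-22 and 0.994). Between the genotypes Myl9 was 66.04-fold, 131-fold and 157-fold higher in orpk at static, 2 and 30 dyn/cm2.

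Mylk, whose product is the kinase that activates that light chain (chr16:34745210-35002420, plus strand), fell at 30 dyn/cm2 in both genotypes and was lower in orpk than in WT. Mylk held 23.6, 22.3 and 24.7 CPM in static orpk libraries, 37.96, 34.5 and 35.03 CPM at 2 and 8.69, 10.003 and 11.2 CPM at 30 dyn/cm2. WT libraries held Mylk at 59.8, 53.2 and 60.3 CPM in static culture, 42.2, 53.04 and 51.01 CPM at 2 and 27.6, 24.3 and 24.3 CPM at 30 dyn/cm2. The 30 dyn/cm2 libraries were the lowest of each genotype without overlap, and at 2 dyn/cm2 orpk libraries lay above their static group. The log2 change at 30 dyn/cm2 over static was -1.24 ± 0.11 (SE) in orpk and -1.19 ± 0.07 in WT (edgeR adjusted p = 1.31e-11 and 3.18e-15). Annotated genes overlap Mylk on the other strand. Myh11, the smooth muscle myosin heavy chain (chr16:14194535-14291372, minus strand), was barely detected, at 23, 11 and 9 reads over the orpk groups and 10, 3 and 4 over the WT groups in order of shear.

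Of the thin filament genes, the beta-tropomyosin Tpm2 (chr4:43514711-43523765, minus strand) separated the genotypes. Tpm2 held 288, 297 and 303 CPM in static orpk libraries, 311, 334 and 323 CPM at 2 and 350.4, 345 and 336 CPM at 30 dyn/cm2. WT libraries held Tpm2 at 4.37, 4.06 and 3.62 CPM in static culture, 1.96, 1.502 and 2.605 CPM at 2 and 2.097, 2.61 and 1.98 CPM at 30 dyn/cm2. The static libraries were the highest in WT and the lowest in orpk, in both cases apart from the 30 dyn/cm2 group. Tpm2 was 73.9-fold, 158-fold and 154-fold higher in orpk than in WT at static, 2 and 30 dyn/cm2 (edgeR adjusted p = 1.05e-45, 5.32e-47 and 3.9e-47).

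Tpm1, the alpha-tropomyosin gene used in muscle and in other cells, went the other way between genotypes (chr9:67022590-67049406, minus strand). Tpm1 held 402, 424 and 425 CPM in static orpk libraries, 503, 505 and 505 CPM at 2 and 621, 581 and 603 CPM at 30 dyn/cm2. WT libraries held Tpm1 at 968, 966 and 951 CPM in static culture, 730.01, 686 and 678 CPM at 2 and 721, 720.4 and 715 CPM at 30 dyn/cm2. All 9 WT libraries exceeded all 9 orpk libraries, and the gap narrowed with shear as Tpm1 rose in orpk and fell in WT. On the log2 scale orpk differed from WT by -1.21 ± 0.03 (SE) when static, -0.47 ± 0.03 at 2 and -0.26 ± 0.03 at 30 dyn/cm2 (edgeR adjusted p = 7.93e-31, 1.27e-16 and 3.44e-09).

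Caldesmon and leiomodin, a filament regulator and a protein that seeds smooth muscle actin filaments, were both higher in orpk. Cald1 (chr6:34598500-34775473, plus strand) held 1704, 1697 and 1724 CPM in static orpk libraries, 1869, 1789.6 and 1828 CPM at 2 and 2478, 2486 and 2469 CPM at 30 dyn/cm2. WT libraries held Cald1 at 803, 794 and 760.4 CPM in static culture, 543, 572 and 580.1 CPM at 2 and 691, 715 and 692 CPM at 30 dyn/cm2. No orpk library overlapped a WT library, and flow raised Cald1 in orpk and lowered it in WT. At 30 dyn/cm2 the log2 change over static was 0.54 ± 0.03 (SE) in orpk and -0.17 ± 0.03 in WT (edgeR adjusted p = 7.78e-19 and 1.28e-05).

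Lmod1 (chr1:135324807-135368065, plus strand) held 1.21, 0.904 and 1.02 CPM in static orpk libraries, 3.704, 3.91 and 3.71 CPM at 2 and 1.42, 1.5004 and 1.395 CPM at 30 dyn/cm2. WT libraries held Lmod1 at 0.522, 0.2799 and 0.747 CPM in static culture, 0.543, 0.3004 and 0.543 CPM at 2 and 0.2996, 0.444 and 0.551 CPM at 30 dyn/cm2, from 25, 25 and 23 reads over the groups. Its peak was at 2 dyn/cm2 in orpk, where the 3 libraries lay above all others. Lmod1 rose by 1.85 ± 0.21 (SE) on the log2 scale at 2 dyn/cm2 over static in orpk and was -1.39 ± 0.20 at 30 against 2 dyn/cm2 (edgeR adjusted p = 6.27e-10 and 1.14e-07). In static cells orpk exceeded WT by 0.96 ± 0.34 (edgeR adjusted p = 0.00789), a call lost without WT static replicate 2 (0.69, adjusted p = 0.0691, edgeR).

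Tnnt2, cardiac troponin T (chr1:135836354-135852260, plus strand), was a member whose strong response to 30 dyn/cm2 appeared in both genotypes. Tnnt2 held 2.78, 2.196 and 2.34 CPM in static orpk libraries, 3.902, 4.69 and 3.78 CPM at 2 and 24.7, 27.4 and 26.6 CPM at 30 dyn/cm2. WT libraries held Tnnt2 at 4.7001, 3.01 and 4.83 CPM in static culture, 3.803, 3.604 and 3.15 CPM at 2 and 26.6, 28.9 and 24.5 CPM at 30 dyn/cm2. The 30 dyn/cm2 libraries of both genotypes overlapped each other and lay far above all others. Tnnt2 rose 10.8-fold in orpk and 6.29-fold in WT at 30 dyn/cm2 over static (edgeR adjusted p = 1.3e-25 and 4.28e-24). At 30 dyn/cm2 the genotypes differed by -0.02 ± 0.08 (SE) on the log2 scale, short of the threshold (edgeR adjusted p = 0.798). The change over static at 2 dyn/cm2 was 0.76 ± 0.18 (SE) in orpk and -0.27 ± 0.16 in WT, and the test of their difference gave 1.03 ± 0.24 (edgeR adjusted p = 0.000449).

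Smoothelin, desmin and synaptopodin 2, structural proteins of contractile muscle, each had a pattern of its own. Smtn (chr11:3517523-3540612, minus strand) held 159, 158 and 154 CPM in static orpk libraries, 147, 162 and 152 CPM at 2 and 143, 140.2 and 141 CPM at 30 dyn/cm2. WT libraries held Smtn at 503, 494 and 521 CPM in static culture, 419, 453 and 453 CPM at 2 and 461, 441 and 448 CPM at 30 dyn/cm2. Every WT library lay above every orpk library. The log2 difference between orpk and WT was -1.69 ± 0.04 (SE), -1.52 ± 0.04 and -1.67 ± 0.04 at static, 2 and 30 dyn/cm2 (edgeR adjusted p = 2.38e-34, 9.59e-33 and 6.45e-34).

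Des, the intermediate filament protein of muscle (chr1:75360329-75368579, plus strand), held 5.99, 5.75 and 5.64 CPM in static orpk libraries, 7.14, 6.98 and 6.62 CPM at 2 and 4.87, 3.501 and 4.26 CPM at 30 dyn/cm2. WT libraries held Des at 1.24, 2.38 and 2.41 CPM in static culture, 2.99, 2.76 and 3.26 CPM at 2 and 3.96, 3.61 and 4.47 CPM at 30 dyn/cm2. The genotypes were apart in static culture and at 2 dyn/cm2, and overlapped at 30 dyn/cm2. The log2 change at 30 dyn/cm2 over static was -0.46 ± 0.15 (SE) in orpk and 0.99 ± 0.18 in WT (edgeR adjusted p = 0.00713 and 7.56e-06), and the test of the difference gave -1.45 ± 0.24 (edgeR adjusted p = 1.47e-06). The orpk call alone was lost without orpk replicate 2 at 30 dyn/cm2 (-0.34, adjusted p = 0.0724, edgeR).

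Synpo2 (chr3:123076519-123236149, minus strand) held 22.7, 24.5 and 23.9 CPM in static orpk libraries, 42.99, 39.03 and 38.9 CPM at 2 and 20.1, 17.005 and 18.8 CPM at 30 dyn/cm2. The WT groups held 3, 8 and 10 Synpo2 reads over 3 libraries in order of shear. In orpk the 2 dyn/cm2 libraries were the highest and the 30 dyn/cm2 libraries the lowest. The change over static was 0.76 ± 0.07 (SE) at 2 and -0.35 ± 0.08 at 30 dyn/cm2 on the log2 scale (edgeR adjusted p = 4.56e-12 and 0.000339). Static orpk and WT libraries differed by a ratio of 372.4, with a 95% exact counting interval of 127.1 to 1809.0.

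**Figure D3:**
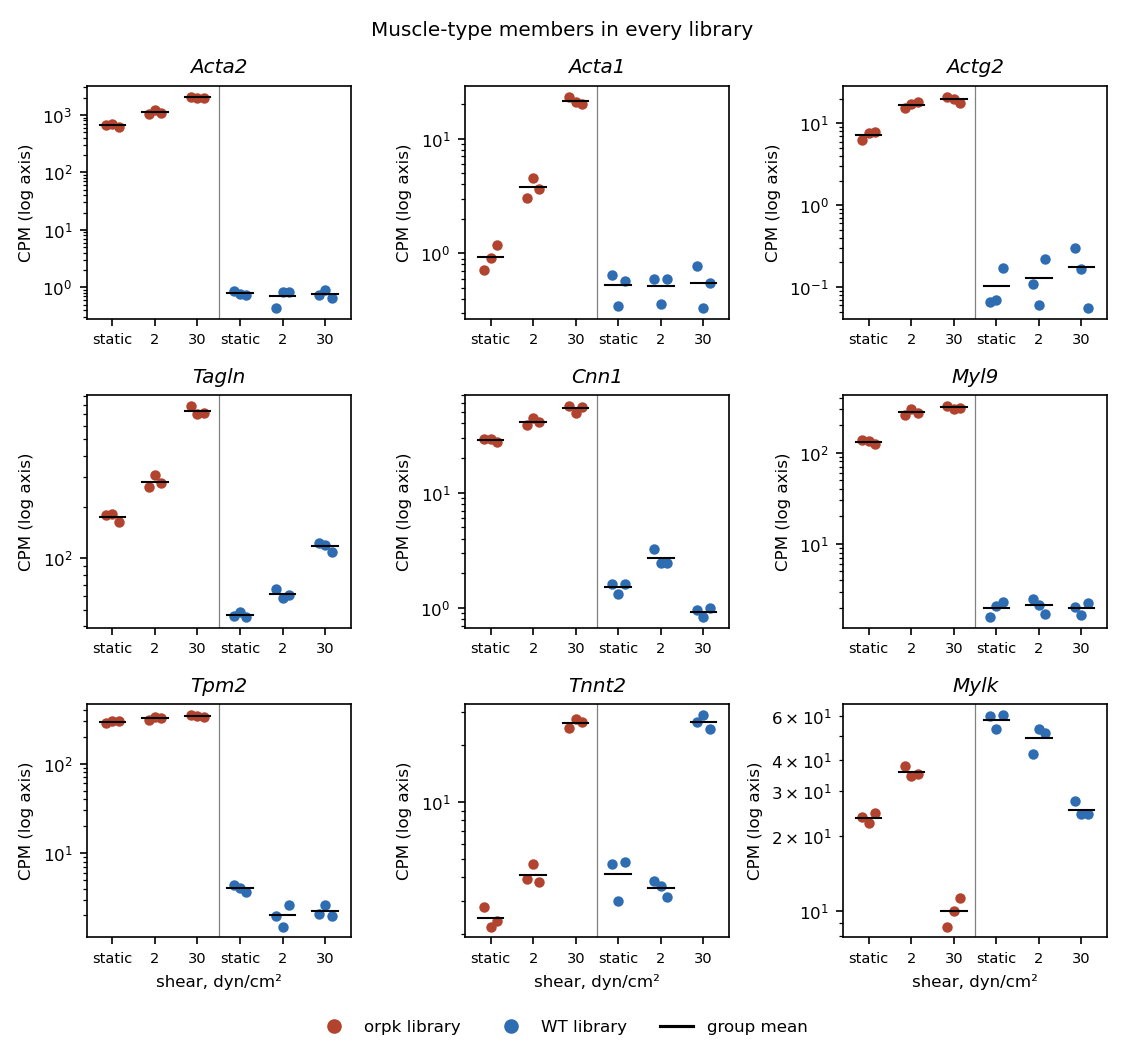
Each panel plots one muscle-type gene, with a point per library and a bar at the mean of each group of 3, orpk left and WT right in order of shear, against CPM on a log axis. Acta2, Actg2, Cnn1, Myl9 and Tpm2 sit far apart between genotypes, while Tnnt2 reaches about the same level at 30 dyn/cm2 in both and Mylk drops at 30 dyn/cm2 in both.

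**Figure D4:**
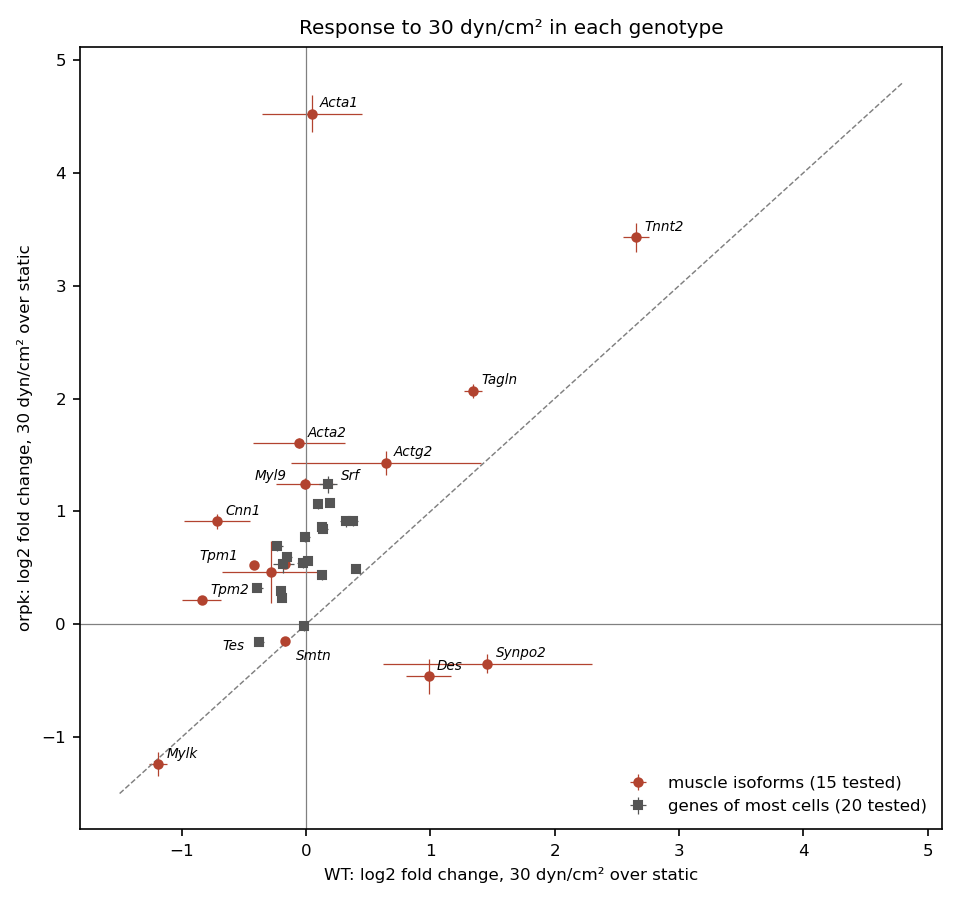
The log2 fold change of 30 dyn/cm2 over static in orpk (vertical) is plotted against that in WT (horizontal) for the 35 tested genes, with bars of 1 SE, and the dashed line marks equal responses. Acta1 stands at 4.52 in orpk and 0.05 in WT, Tnnt2 and Tagln are high on both axes, and most general genes lie above the dashed line.

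The general isoforms differed less between the groups, the largest log2 difference of flow or genotype being 1.52 for Myh9 between genotypes at 2 dyn/cm2. At 2 dyn/cm2 over static, 12 of the 20 rose in orpk and fell in WT under TMM scaling, and at 30 dyn/cm2 over static 5 did so while 9 rose in both. The share of all genes with these pairs of directions was not counted, so these counts do not set the general class apart. Actb, the main actin of non-muscle cells (chr5:142903115-142906754, minus strand), held 2016, 2093 and 1948 CPM in static orpk libraries, 2599, 2606 and 2743 CPM at 2 and 2982, 2933 and 2928 CPM at 30 dyn/cm2. WT libraries held Actb at 2476, 2543 and 2503 CPM in static culture, 2542, 2116 and 2128 CPM at 2 and 2522, 2444 and 2427 CPM at 30 dyn/cm2. Static orpk libraries were the lowest of all and the 30 dyn/cm2 orpk libraries the highest. In orpk the log2 change over static was 0.39 ± 0.05 (SE) at 2 and 0.55 ± 0.05 at 30 dyn/cm2 (edgeR adjusted p = 7.2e-08 and 1.2e-10), and at 30 dyn/cm2 in WT it was -0.02 ± 0.05 (edgeR adjusted p = 0.666). Under library totals the difference between orpk and WT at 30 dyn/cm2, 0.26 ± 0.05, turned to -0.06.

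Actg1, the cytoplasmic gamma-actin (chr11:120345690-120348542, minus strand), held 14.05, 14.9 and 13.98 CPM in static orpk libraries, 18.8, 18.6 and 20.3 CPM at 2 and 21.1, 20.4 and 20.8 CPM at 30 dyn/cm2. WT libraries held Actg1 at 12.01, 13.6 and 13.97 CPM in static culture, 11.03, 11.2 and 11.1 CPM at 2 and 12.8, 11.8 and 10.4 CPM at 30 dyn/cm2. Static libraries of the genotypes differed by 0.12 ± 0.09 (SE) on the log2 scale, short of the threshold (edgeR adjusted p = 0.199), and sheared orpk libraries lay well above sheared WT ones. The log2 change at 30 dyn/cm2 over static was 0.53 ± 0.08 (SE) in orpk and -0.18 ± 0.09 in WT (edgeR adjusted p = 1.89e-07 and 0.0567).

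Srf, the transcription factor that drives many of these genes (chr17:46548329-46556175, minus strand), had the largest response to flow of the general class. Srf held 56.2, 54.5 and 53.95 CPM in static orpk libraries, 149.6, 129 and 155 CPM at 2 and 136, 123 and 129 CPM at 30 dyn/cm2. WT libraries held Srf at 65.8, 77.7 and 64.6 CPM in static culture, 83.6, 82.7 and 77.7 CPM at 2 and 76.8, 74.9 and 82.9 CPM at 30 dyn/cm2. Sheared orpk libraries lay above all WT libraries, and static orpk libraries below them all. Srf rose 2.63-fold at 2 and 2.36-fold at 30 dyn/cm2 over static in orpk (edgeR adjusted p = 9.85e-14 and 6.93e-13). The WT log2 changes were 0.23 ± 0.07 (SE) and 0.18 ± 0.07 (edgeR adjusted p = 0.00662 and 0.0325). The WT call at 2 dyn/cm2 was lost without WT replicate 1 at that shear (0.21, adjusted p = 0.0603, edgeR), and that at 30 dyn/cm2 without WT static replicate 1 or 3, WT replicate 1 at 2 or WT replicate 3 at 30 dyn/cm2 (0.13 to 0.18, adjusted p = 0.0726 to 0.152, edgeR).

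The non-muscle myosin genes rose with shear in orpk. Myh9, the heavy chain of non-muscle myosin IIA (chr15:77760587-77842175, minus strand), held 1667, 1747 and 1633 CPM in static orpk libraries, 2041, 2056 and 2123 CPM at 2 and 2984, 3078 and 3089 CPM at 30 dyn/cm2. WT libraries held Myh9 at 968, 996 and 977 CPM in static culture, 675, 735 and 762 CPM at 2 and 1068, 1082 and 1072 CPM at 30 dyn/cm2. In WT the 2 dyn/cm2 libraries were the lowest and the 30 dyn/cm2 libraries the highest. The log2 change at 2 dyn/cm2 over static was 0.30 ± 0.03 (SE) in orpk and -0.44 ± 0.04 in WT, and at 30 dyn/cm2 0.86 ± 0.03 in orpk and 0.13 ± 0.03 in WT (edgeR adjusted p = 5.69e-10, 3.68e-14, 2.45e-24 and 0.00107).

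Light chain genes shared that rise in orpk at 30 dyn/cm2. Myl12a, a regulatory light chain (chr17:70993656-71002878, minus strand), held 347, 355 and 343 CPM in static orpk libraries, 371, 382 and 386 CPM at 2 and 734, 713 and 735 CPM at 30 dyn/cm2. WT libraries held Myl12a at 317, 339 and 329.7 CPM in static culture, 318, 276 and 286 CPM at 2 and 351, 347 and 352 CPM at 30 dyn/cm2. The 30 dyn/cm2 orpk libraries lay far above every other library, with a log2 change over static of 1.06 ± 0.04 (SE, edgeR adjusted p = 2.62e-26). Myl6, the essential light chain (chr10:128490860-128494145, minus strand), held 127, 129 and 126 CPM in static orpk libraries, 142, 152 and 153 CPM at 2 and 219, 218 and 214 CPM at 30 dyn/cm2. WT libraries held Myl6 at 97.3, 105 and 96.7 CPM in static culture, 98.8, 90.2 and 93.7 CPM at 2 and 97.02, 102 and 97.97 CPM at 30 dyn/cm2. Its orpk groups were separate at each step while its WT groups overlapped, with a change at 30 dyn/cm2 over static of 0.77 ± 0.04 (SE) in orpk and -0.01 ± 0.04 in WT (edgeR adjusted p = 9.58e-21 and 0.866). Myl12b, the neighbour of Myl12a and another regulatory light chain, and Myh10, heavy chain IIB, rose less in orpk at 30 dyn/cm2 (0.32 and 0.23) and fell in WT (-0.39 and -0.19). Annotated transcripts of Myl12a and Myl12b overlap, and they share 21.1% and 25.4% of their 50-base words with other genes, so reads may be split between them.

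Flna, Actn1, Vcl and Cnn2 rose at both shears in orpk. Flna, filamin A, which crosslinks actin into networks (chrX:74223461-74249820, minus strand), held 2499, 2639.9 and 2463 CPM in static orpk libraries, 3032, 3315 and 3068 CPM at 2 and 4752, 4866 and 4686 CPM at 30 dyn/cm2. WT libraries held Flna at 1799, 1787 and 1793 CPM in static culture, 1696, 1989 and 2048 CPM at 2 and 2238, 2247 and 2224 CPM at 30 dyn/cm2. The orpk groups were separate and in order of shear, with a log2 change at 30 dyn/cm2 over static of 0.91 ± 0.05 (SE) in orpk and 0.32 ± 0.05 in WT (edgeR adjusted p = 7.93e-15 and 2.06e-06). Actn1, the alpha-actinin of stress fibres (chr12:80167547-80260371, minus strand), held 370.4, 376 and 356 CPM in static orpk libraries, 483, 495 and 506 CPM at 2 and 776, 785 and 767 CPM at 30 dyn/cm2. WT libraries held Actn1 at 482, 494 and 506 CPM in static culture, 405, 433 and 443 CPM at 2 and 563, 568 and 562 CPM at 30 dyn/cm2. Actn1 was lower in orpk than in WT when static (-0.43 ± 0.03, SE) and higher at 30 dyn/cm2 (0.46 ± 0.03), with no overlap in either (edgeR adjusted p = 8e-15 and 3.66e-16).

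Vcl, vinculin, which links adhesion sites to actin (chr14:20929398-21033676, plus strand), held 534, 545 and 500.2 CPM in static orpk libraries, 671, 686 and 675 CPM at 2 and 787, 801 and 805 CPM at 30 dyn/cm2. WT libraries held Vcl at 334, 350.5 and 338 CPM in static culture, 247, 283 and 285 CPM at 2 and 307, 307 and 307 CPM at 30 dyn/cm2. Shear raised Vcl in orpk and lowered it in WT, by 0.60 ± 0.04 (SE) and -0.15 ± 0.04 on the log2 scale at 30 dyn/cm2 over static (edgeR adjusted p = 1.69e-17 and 0.000866). Vcl overlaps Ap3m1 on the other strand and shares 25.1% of its 50-base words with other genes, so its level is less certain. Cnn2, the calponin of non-muscle cells (chr10:79988584-79996062, plus strand), held 309.7, 333 and 319 CPM in static orpk libraries, 390.4, 402 and 416 CPM at 2 and 537, 503 and 516 CPM at 30 dyn/cm2. WT libraries held Cnn2 at 219, 244 and 219.9 CPM in static culture, 178, 158 and 166 CPM at 2 and 204, 189.98 and 188 CPM at 30 dyn/cm2. As with vinculin, the changes at 30 dyn/cm2 over static were opposed, at 0.70 ± 0.04 (SE) in orpk and -0.23 ± 0.04 in WT (edgeR adjusted p = 2.79e-17 and 1.81e-05).

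The remaining general genes moved by less than 1 on the log2 scale in every comparison of flow or genotype. Transgelin 2 (Tagln2), zyxin (Zyx) and the Lim-domain scaffold Pdlim7 rose at 30 dyn/cm2 over static in both genotypes, by 0.84, 0.43 and 0.91 in orpk and 0.14, 0.13 and 0.38 in WT. Actn4, another alpha-actinin, was 0.29 in orpk and -0.20 in WT in the same comparison. Of the general tropomyosins, Tpm3 rose in both (0.49 in orpk and 0.40 in WT) and Tpm4 in orpk (0.56). The LIM protein gene Tes fell in both, with log2 changes of -0.15 in orpk and -0.38 in WT, and acidic calponin (Cnn3) passed in neither genotype at 30 dyn/cm2. These values are from edgeR's quasi-likelihood fit.

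**Figure D5:**
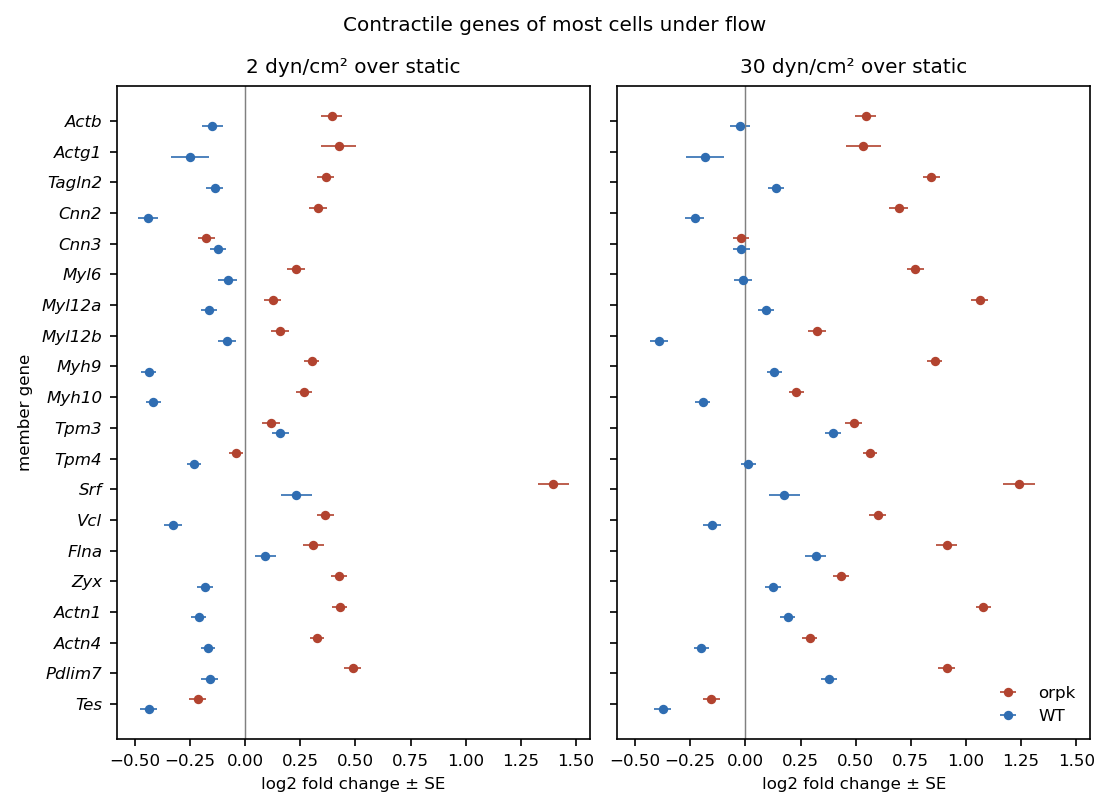
Points give the log2 fold change over static of the 20 general genes at 2 dyn/cm2 (left) and 30 dyn/cm2 (right), with bars of 1 SE, in orpk and in WT. At 2 dyn/cm2 most orpk points lie right of zero and most WT points left of it, with Srf in orpk farthest out at both shears.

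Between the genotypes the count of higher genes grew under flow. In static cells 21 of 35 members were higher in orpk and 13 lower, against 44.4% and 43.4% of all genes. At 2 dyn/cm2, 28 were higher and 6 lower (background 44.6% and 42.9%), and at 30 dyn/cm2, 26 and 6 (background 44.9% and 42.0%). The general class had 10 genes higher and 9 lower in static cells, near the background, and 16 higher and 3 lower at 30 dyn/cm2. The median log2 difference of the muscle class was 1.52, 2.83 and 2.65 at static, 2 and 30 dyn/cm2, and that of the general class was 0.10, 0.39 and 0.65. The median of all genes was 0.01, 0.02 and 0.04. Muscle genes such as Actg2 and Synpo2, near the counting floor in WT, passed the filter on low counts only through their orpk libraries. Such genes could enter only as higher in orpk, which tilts the muscle counts and medians of these comparisons upward. Library totals shifted the genotype differences of all genes by -0.22, -0.22 and -0.31.

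A test of the difference in response was run for each gene as an interaction, orpk minus WT. For 2 dyn/cm2 over static, 29 of 35 members were higher and 0 lower (background 27.1% and 25.4%), and for 30 dyn/cm2 over static, 27 were higher and 1 lower (background 30.6% and 26.9%). At 2 dyn/cm2, 16 members rose in orpk and fell in WT. All 16 had a called interaction, which is nearly fixed in advance for genes picked by opposite calls from the same fit. Of these, 12 were general genes, Actb, Myh9, Myh10, Vcl, Zyx, Actn1 and Actn4 among them. At 30 dyn/cm2, 9 members rose in orpk and fell in WT, and these were Cnn1, Tpm1, Tpm2, Cald1, Cnn2, Myl12b, Myh10, Vcl and Actn4. Their interactions were all called too, for the same reason. Another 11 members rose in both genotypes at 30 dyn/cm2, with a called interaction for 10 of them. Pairs of directions were not counted over all genes, so these paired counts describe the members alone.

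Acta1 had the largest interaction at each shear over static. For 30 dyn/cm2 over static Acta1 differed by 4.48 ± 0.51 (SE) and Acta2 by 1.66 ± 0.39 on the log2 scale (edgeR adjusted p = 7.45e-10 and 0.000622). At 2 dyn/cm2 they were 2.04 ± 0.49 and 0.93 ± 0.39 (edgeR adjusted p = 0.000552 and 0.0457), and the Acta2 call was lost when any of 7 libraries was left out. Those were orpk static replicate 1, orpk replicate 2 at 30, all 3 WT static libraries and WT replicates 1 and 3 at 2 dyn/cm2 (0.67 to 1.07, adjusted p = 0.0508 to 0.354, edgeR). Srf differed by 1.16 ± 0.10 (SE) at 2 and 1.06 ± 0.10 at 30 dyn/cm2 (edgeR adjusted p = 1.93e-09 and 7.54e-09). Between 30 and 2 dyn/cm2, 14 members were higher and 6 lower (background 25.0% and 21.5%), and 10 and 7 with library totals. The orpk and WT changes in these tests come from separate libraries, but the 2 and 30 dyn/cm2 changes share their static libraries.

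Lists of genes that act on the same machinery were counted at 30 dyn/cm2 over static, where 36.5% of all genes were higher and 33.3% lower in orpk, and 34.1% and 32.7% in WT. Of 9 tested genes for cofactors and partners of serum response factor, 7 rose and 1 fell in orpk, and 1 rose and 3 fell in WT, where the share lower (33.3%) is near the background. Csrp1, a Lim protein of smooth muscle, rose in orpk (0.76 ± 0.04, SE) and was 0.06 ± 0.04 in WT, short of the threshold, its relative Csrp2 rose in both (orpk 0.47 ± 0.06 and WT 1.20 ± 0.07), and the cofactor Mrtfb fell in both (orpk -0.41 ± 0.05 and WT -0.38 ± 0.05). Its relative Mrtfa rose slightly in orpk (0.12 ± 0.04) and fell in WT (-0.37 ± 0.05).

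Among 23 genes of actin assembly, 15 rose and 3 fell in orpk (65.2% and 13.0%), and 9 rose and 10 fell in WT (39.1% and 43.5%, against the background of 34.1% and 32.7%). Tmsb4x, which binds actin monomers, rose in both (orpk 1.16 ± 0.04 and WT 1.66 ± 0.07, SE), as did the cofilin kinase Limk2 (orpk 1.15 ± 0.05 and WT 0.77 ± 0.05), and Enah, a filament elongation factor, fell in both (orpk -1.13 ± 0.04 and WT -0.73 ± 0.04). Of 22 adhesion plaque genes, 12 rose and 5 fell in orpk (54.5% and 22.7%), and 3 rose and 13 fell in WT (13.6% and 59.1%). Pdlim1 rose 5.29-fold in orpk and 5.16-fold in WT, where it rested on 35 reads in static cells and 205 at 30 dyn/cm2. Lpp, a relative of zyxin, fell in both (orpk -0.19 ± 0.06 and WT -1.25 ± 0.07). All these changes are from edgeR's quasi-likelihood test at an adjusted p under 0.05, with median list changes of 0.23, 0.25 and 0.18 in orpk for cofactors, assembly and adhesion genes, and -0.11, 0.05 and -0.33 in WT. By group mean, the adhesion gene Svil went opposite ways. It averaged 208 CPM static and 92.2 CPM at 30 dyn/cm2 in orpk, and 42.9 and 54.8 CPM in WT.

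Ranked over the 6 group means, 21 of 35 tested members, 8 muscle and 13 general genes, were highest in orpk at 30 dyn/cm2. The share of all tested genes highest in that group was not counted, so this ranking does not set the members apart from other genes. The 3 muscle genes Lmod1, Des and Synpo2 and 1 general gene, Srf, were highest in orpk at 2 dyn/cm2. Static WT cells held the top level of Mylk, Smtn and Tpm1 of the muscle class, at 57.8, 506 and 962 CPM. Cald1, of the same class, averaged at least 565 CPM in every group. WT at 30 dyn/cm2 held the top level of Tnnt2, where orpk at 30 dyn/cm2 did not differ beyond the spread of libraries. Levels per kilobase placed Actb first in every group, at 1100.3 CPM per kilobase in orpk and 919.9 in WT at 30 dyn/cm2. Second in orpk at 30 dyn/cm2 was Acta2, at 914 CPM per kilobase, and in WT it was Tpm4, at 305. Of the 37 members, 22 overlap another annotated gene and 19 overlap one on the other strand. Use of the strand in counting is not given in the sources used here, so reads of the partner gene may be included. In 8 members, 10% or more of the 50-base words also occur in other genes. Cnn3 (24.0%), Tpm3 (23.2%) and Tpm4 (15.7%) are among these, so their levels are less certain too.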

How the data were processed

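RNA was measured in 18 libraries, 3 per group of genotype and shear, grouped by their labels. Per the labels, poly(A) RNA was made into stranded libraries and sequenced from 1 end over 50 nt. The submitters' processing notes name CASAVA 1.8.2, STAR 2.4, featureCounts 1.4.6 and GRCm38, and do not say how strand or reads with several matches were treated. The authors deposited a whole-number count of reads for each gene in each library. With R 4.3.3 and edgeR 4.0.16, 13058 of 21647 genes passed filterByExpr, were scaled by TMM and entered a quasi-likelihood model, robust, with a mean for each of 6 groups. Contrasts were tested by the quasi-likelihood F test, with Benjamini-Hochberg adjustment at 0.05 over all genes of each of 12 comparisons. SE is the size of a log2 change over the root of F. CPM are TMM-normalised, and SD are over 3 libraries. Counting intervals and the floor of 3 reads per group cover counting error only.

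Members and lists were chosen with earlier results of these data known, so the counts are descriptions. Every member may be named, and library values are given for the 6 actins and for members with a called log2 change over 1 in a flow or genotype comparison. Of pathway lists, up to 3 called genes per comparison with the largest change and a mean of at least 5 CPM could be named. Locations are from GENCODE M21 on GRCm38, and promoter windows from RefSeq on GRCm38.p6. One further pathway list is not reported here. The method was tested on simulated data. Alternatives were DESeq2 1.42.0, RLE factors, library totals, no filter, a fit on the compared groups alone, the replicate block, each library left out, and longest-transcript lengths.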

Additional observations from a re-analysis of the deposited data

Results flagged for a closer look

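All results named here were picked out because the response to flow differed between orpk and WT in the interaction test (edgeR quasi-likelihood, Benjamini-Hochberg adjusted p under 0.05), and values are orpk minus WT on the log2 scale with their SE. For 2 dyn/cm2 over static, 29 of 35 members passed, where 27.1% of all genes were higher and 25.4% lower. The largest were in Acta1 (2.04 ± 0.49), Lmod1 (2.03 ± 0.46), Srf (1.16 ± 0.10), Tpm2 (1.09 ± 0.16) and Tnnt2 (1.03 ± 0.24), beside the actins Acta2 (0.93 ± 0.39), Actg1 (0.67 ± 0.12) and Actb (0.54 ± 0.07).

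For 30 dyn/cm2 over static, 28 of 35 members passed, where 30.6% of all genes were higher and 26.9% lower. Acta1 differed by 4.48 ± 0.51, Acta2 by 1.66 ± 0.39, Cnn1 by 1.63 ± 0.27, Myl9 by 1.25 ± 0.24, Srf by 1.06 ± 0.10 and Tpm2 by 1.06 ± 0.16. The cytoplasmic actins differed less, Actg1 by 0.72 ± 0.12 and Actb by 0.57 ± 0.07. Des was the one member in the other direction, at -1.45 ± 0.24.

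For 30 over 2 dyn/cm2, 20 of 35 members passed, where 25.0% of all genes were higher and 21.5% lower. Among them were Acta1 (2.44 ± 0.44) and Cnn1 (1.93 ± 0.23) in one direction, and Lmod1 (-1.28 ± 0.46) and Des (-1.13 ± 0.22) in the other. The Lmod1 call was lost without WT replicate 2 at 2 dyn/cm2 or WT replicate 3 at 30 dyn/cm2 (-1.07 in both, adjusted p = 0.063 to 0.109, edgeR). Groups of 3 libraries are too small for a gap test of a gene's highest or lowest library.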

How the results depend on the processing

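No total count of members or genes past the threshold, higher and lower together, moved by more than 1.5 times under RLE size factors, library totals, no filter on low counts, DESeq2, the compared groups alone or the replicate block. Split by direction, library totals gave 11 members lower in place of 20 for WT at 2 over static, 9 in place of 6 for orpk at 30 over 2, and 1 in place of 2 for orpk at 2 over static. The interaction for 30 over static had 2 members lower in place of 1 with the compared groups alone, without WT static replicate 1 and without WT replicate 3 at 2 dyn/cm2. The counts of members called without any 1 library ranged from 31 to 32 for orpk at 2 over static, 32 to 33 for orpk at 30 over static, 27 to 30 for orpk at 30 over 2, 24 to 27, 21 to 24 and 18 to 22 for the same contrasts in WT, and 31 to 34, 34 and 31 to 33 for orpk over WT at static, 2 and 30 dyn/cm2. For the interactions they ranged from 27 to 29 at 2 over static, 28 to 29 at 30 over static and 18 to 20 at 30 over 2 dyn/cm2. Values of single members turned direction under 1 alternative alone, library totals as the scaling, which shifts the median of all genes by up to -0.31. These were Tpm2 and Zyx in orpk at 30 over 2 dyn/cm2 (-0.0222 and -0.11), Myl12a and Tpm4 in orpk over WT in static cells (-0.13 and -0.0426), Myl12b and Actn1 in orpk over WT at 2 dyn/cm2 (-0.0676 and -0.00929), and Actb, Myh10 and Pdlim7 in orpk over WT at 30 dyn/cm2 (-0.0565, -0.25 and -0.0317). In single members, 107 calls were lost and 15 gained over all fits without 1 library, and none turned direction. Samples with the same replicate number showed no common deviation over the pairs of groups (correlations from -0.08 to 0.11). The labels do not say what a replicate number shares, so whether the numbers pair samples is unknown. With the replicate block, 32 members were called for orpk over WT in static cells in place of 34 and 29 for orpk at 30 over 2 dyn/cm2 in place of 30, which dropped Acta1, Myl12b and Srf. Depth limits Actc1, Myh11 and, in WT, Actg2 and Synpo2, each at 10 or fewer reads in a WT group.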
